A study of Mus musculus with 11 samples.

Results

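The annexin family was described here through 8 member genes, Anxa1, Anxa2, Anxa3, Anxa4, Anxa5, Anxa6, Anxa7 and Anxa11, out of the 31053 genes of the mouse liver spatial transcriptomics matrices. The members were chosen by gene name and not by their values, and all 8 passed the filter on low counts. Visium was used, an assay in which a thin cryosection lies on an array of barcoded spots that capture the 3′ ends of polyadenylated RNA, so that each spot reports the mixed RNA of the several cells above it. The sections came from livers labelled healthy and uninjured (0 h, 3 sections numbered 2, 3 and 4) and from livers labelled POD, which the series places along a time course of acetaminophen (APAP) injury, at 24 h (2 sections, A and B), 36 h (2 sections, A and B) and 48 h (4 sections, A to D). Per the study's methods, wild-type mice were C57BL/6JCrl, and animals were fasted before a single intraperitoneal injection of APAP, a drug that Cyp2e1 turns into a toxic product around the central veins, where hepatocytes then die. The methods also give 1 age range for the mice of all experiments and an APAP dose for each sex. They state that males were used unless a figure legend says otherwise. The labels give neither the strain nor the age of these mice, nor say whether the 0 h mice were fasted or injected with vehicle. The methods give an n of 1 mouse liver at each time, and no source used here says from which mouse each of the several sections per time came. Therefore n counts sections, p-values may measure how sections vary and not how mice vary, and, if each time is 1 mouse, mouse and time cannot be told apart.

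Annexins are cytosolic proteins that bind acidic phospholipids when calcium rises, and so attach to the inner face of the plasma membrane and to endosomes and secretory vesicles. Several bind small S100 proteins, which link membranes together, and take part in vesicle transport, in resealing torn membranes and in tying membranes to the actin cytoskeleton. In healthy liver, Anxa4, Anxa5 and Anxa6 are among the better known members, whereas Anxa2 is low in resting hepatocytes and is found in bile ducts, vessels and leukocytes. The study used Anxa2 as the marker of a hepatocyte population that appears after injury, and the comparisons below address how far Anxa2 moved with its relatives.

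The members lie on 7 chromosomes of GRCm38, with Anxa7 and Anxa11 both on chromosome 14. Anxa2 spans 69453620 to 69491795 of chromosome 9 on the plus strand, Anxa1 spans 20373428 to 20390944 of chromosome 19 on the minus strand, and Anxa3 spans 96793339 to 96845966 of chromosome 5 on the plus strand. Promoter windows from 250 bases before to 50 bases after the start were matched in RefSeq (GRCm38.p6) for 6 of the 8 members, in 8 windows. The windows of the 2 members with the larger changes that were matched, Anxa1 and Anxa2, are shown beside that of Anxa11, which ended at its starting level. Capitals mark matches on either strand to TATAAA and to the AP-1 motif TGANTCA.
Anxa1, chr19:20390622-20390921, minus strand: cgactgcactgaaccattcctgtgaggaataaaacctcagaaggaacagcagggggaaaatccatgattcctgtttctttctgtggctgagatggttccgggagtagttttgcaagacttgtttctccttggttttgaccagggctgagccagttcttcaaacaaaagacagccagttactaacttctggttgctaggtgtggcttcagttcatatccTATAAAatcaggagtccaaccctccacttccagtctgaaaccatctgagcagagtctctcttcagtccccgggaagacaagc
Anxa2, chr9:69453433-69453732, plus strand: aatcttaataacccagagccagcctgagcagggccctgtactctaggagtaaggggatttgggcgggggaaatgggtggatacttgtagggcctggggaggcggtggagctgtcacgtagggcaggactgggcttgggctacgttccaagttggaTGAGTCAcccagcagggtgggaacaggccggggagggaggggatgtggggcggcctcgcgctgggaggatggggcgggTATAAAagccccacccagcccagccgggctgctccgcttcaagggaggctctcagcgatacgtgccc
Anxa11, chr14:25841905-25842204, plus strand: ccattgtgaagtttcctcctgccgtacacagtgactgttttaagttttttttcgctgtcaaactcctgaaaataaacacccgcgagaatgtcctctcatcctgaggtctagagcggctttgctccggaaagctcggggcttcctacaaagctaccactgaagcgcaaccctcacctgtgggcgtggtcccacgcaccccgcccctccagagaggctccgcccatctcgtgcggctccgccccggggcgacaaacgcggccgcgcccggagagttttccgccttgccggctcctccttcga
TATAAA stood 1 time each in the Anxa1 window, beginning at -32 from the start, and in the Anxa2 window, at -17, and in none of the other 6 windows. Of all 32851 promoter windows, 13.6% held it. The AP-1 motif stood in the Anxa2 window alone, at -95, and 7.81% of all windows held it. The Anxa1 window was also poor in CpG, with 3 against 13 in that of Anxa2 and 25 in that of Anxa11, where the median over all windows was 7. Among windows not shown, those of Anxa4 had 3 and 20, those of Anxa7 had 4 and 19, and that of Anxa5 had 16. These motifs were chosen after the promoters and the values were seen, and a match of letters is a description only.

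The 25136 passing spots gave 31292663 to 67045372 UMIs per section, with section medians of 15169 to 29950 UMIs per spot. The labelled tissue was borne out by its markers, since 7 hepatocyte genes such as Alb summed to 119150 to 124620 CPM at 0 h and to 85325 to 113940 CPM in injured sections. All 4992 barcodes are a fixed set shared by every array, so that shared barcodes do not mark shared spots. Levels, in CPM, are UMIs relative to the total UMIs of the section, scaled by trimmed mean of M-values (TMM), and changes are log2 fold changes from edgeR's quasi-likelihood test on section sums with Benjamini-Hochberg adjustment over 14821 genes, called at an adjusted p under 0.05.

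Against 0 h, Anxa1, Anxa2 and Anxa3 rose at every time and had the larger changes of the family, Anxa4 rose modestly at every time, and Anxa5 was called at 48 h only. Anxa7 and Anxa11 were higher early and back near the 0 h level at 48 h. Anxa6 fell slightly at 24 h. In all, 7 of the 8 members were called at 24 h, where 41.7% of all genes were called, 5 at 36 h against 29.2% of genes, and 5 at 48 h against 44.2%. Bulk sums over a section cannot tell more cells of a type from more RNA per cell.

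Anxa2, which with S100a10 forms a complex at the plasma membrane that binds plasminogen and its activator, lay at 15.2, 15.2 and 18.7 CPM in the 0 h sections. It reached 72.4 and 112 CPM at 24 h, 78.5 and 200.4 CPM at 36 h, and 254, 190, 297 and 128 CPM at 48 h. Every injured section lay above every 0 h section, and the 36 h sections differed from each other by more than the 24 h sections did. For this and the members below, the share of all genes without such overlap was not counted. The fitted increase was 5.63-fold at 24 h (log2 2.49 ± 0.41 SE, adjusted p = 0.00109), 8.53-fold at 36 h (3.09 ± 0.42, adjusted p = 0.00109) and 13.3-fold at 48 h (3.73 ± 0.40, adjusted p = 9.61e-05). Of all genes tested, 2.26% had a higher log2 change than Anxa2 at 48 h.

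Anxa1, a glucocorticoid-regulated protein whose secreted form acts on formyl peptide receptors to restrain leukocytes, lay at 4.23, 4.21 and 4.97 CPM at 0 h. It had 17.3 and 9.86 CPM at 24 h, 11.7 and 24.5 CPM at 36 h and 23.1, 31.8, 42.4 and 35.8 CPM at 48 h. No injured section overlapped the 0 h sections. The increase was 3.06-fold at 24 h (adjusted p = 0.0042), 4.06-fold at 36 h (adjusted p = 0.0028) and 7.46-fold at 48 h (log2 2.90 ± 0.32 SE, adjusted p = 0.000105). Anxa3, known from neutrophil granules and from proliferating hepatocytes and tumours, lay at 6.16, 7.31 and 7.80 CPM at 0 h. It reached 19.5 and 27.4 CPM at 24 h, 18.5 and 43.6 CPM at 36 h, and 61.1, 46.7, 70.9 and 26.7 CPM at 48 h. Its groups did not overlap either, and its sections kept nearly the same order as those of Anxa2, with 36 h A and 48 h D lowest of their times in both genes. The increase was 3.31-fold at 24 h (adjusted p = 0.00802), 4.38-fold at 36 h (adjusted p = 0.00532) and 7.25-fold at 48 h (log2 2.86 ± 0.39 SE, adjusted p = 0.000326).

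These calls rested in part on single sections where a time had 2. Without 24 h section A the Anxa1 change at 24 h was 1.14 (adjusted p = 0.0545), without 24 h section B the Anxa3 change at 24 h was 1.46 (adjusted p = 0.0641), and without 36 h section B the Anxa3 change at 36 h was 1.39 (adjusted p = 0.0612). Without 24 h section B, 3 members were called at 24 h. The Anxa2 changes against 0 h were called without any single section.

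**Figure D1:**
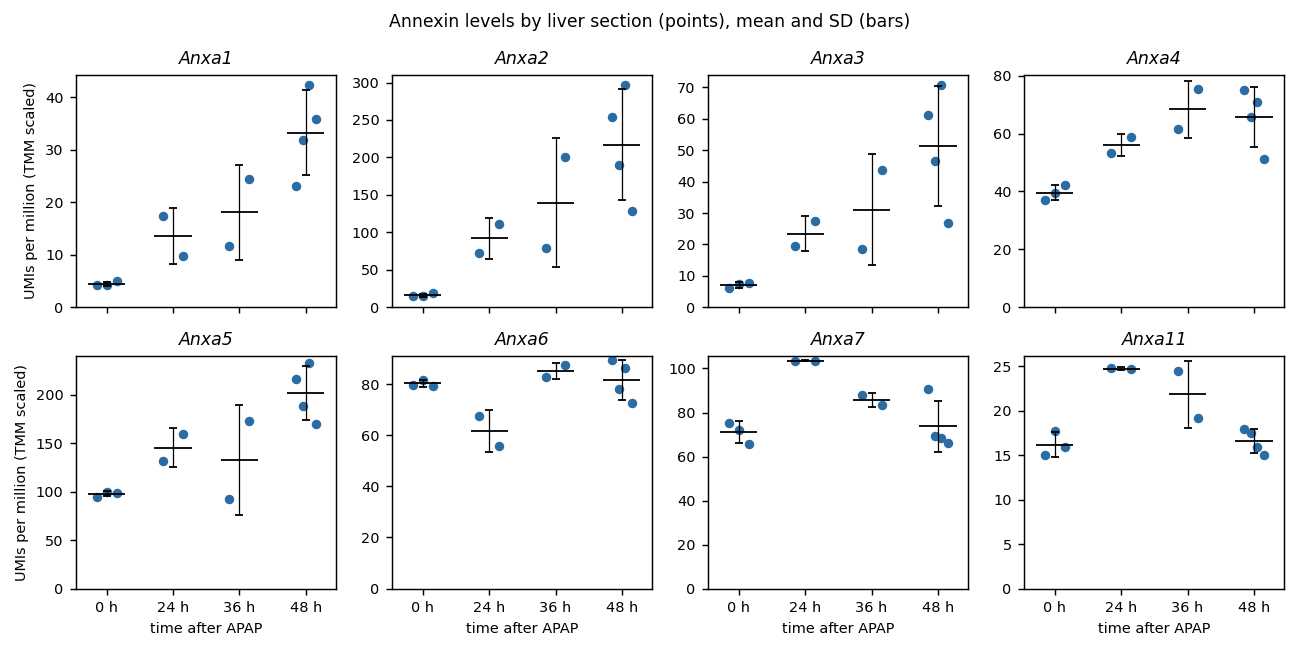
Level of each annexin in CPM (TMM scaled, linear axis from 0) against the time after APAP, with 1 point per section and bars for the mean and SD of the 3, 2, 2 and 4 sections. Anxa1, Anxa2, Anxa3 and Anxa4 lay higher in every injured section than in any 0 h section (Anxa2 15.2 to 18.7 against 72.4 to 297, Anxa4 37.1 to 42.2 against 51.2 to 75.4), whereas Anxa6 stayed between 55.8 and 89.3 throughout.

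Anxa4, which is prominent at the apical membranes of epithelia including bile ducts, had 37.1 to 42.2 CPM at 0 h, 53.3 and 58.7 CPM at 24 h, 61.5 and 75.4 CPM at 36 h and 51.2 to 75.2 CPM at 48 h. The groups did not overlap, and it rose 1.41-fold at 24 h (adjusted p = 0.0263), 1.73-fold at 36 h (adjusted p = 0.00511) and 1.66-fold at 48 h (adjusted p = 0.00152). The 24 h call was lost without any 1 of the 3 sections at 0 h or the 2 at 24 h, with changes of 0.42 to 0.57. Anxa5, the phosphatidylserine-binding protein used to stain apoptotic cells, was among the more abundant members at 0 h with 94.5, 99.9 and 98.7 CPM. It had 131 and 159 CPM at 24 h, 92.7 and 172.5 CPM at 36 h and 216, 188, 232 and 170 CPM at 48 h. Section 36 h A thus lay below all 3 uninjured sections and 36 h B far above them. Anxa5 rose 2.06-fold at 48 h (log2 1.04 ± 0.19 SE, adjusted p = 0.00156), and its values at 24 h (0.57 ± 0.22, adjusted p = 0.0602) and 36 h (0.44 ± 0.22, adjusted p = 0.159) were not called. DESeq2 called it at 24 h (0.56, adjusted p = 0.0464), and so all 8 members there. Without 36 h section A the 36 h value was 0.82 (adjusted p = 0.00636), and without section B it was -0.08 (adjusted p = 0.806). Without either section of 36 h, Anxa5 was also called at 24 h (adjusted p = 0.00777 and 0.0117).

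Anxa7, which was found as a protein that fuses secretory granules, and Anxa11, which tethers RNA granules to lysosomes, formed an early pair. Anxa7 lay at 75.4, 72.3 and 65.9 CPM at 0 h, rose to 103 and 104 CPM at 24 h, and had 88.1 and 83.4 CPM at 36 h and 90.9, 69.5, 68.5 and 66.2 CPM at 48 h. Anxa11 had 14.99, 17.7 and 15.96 CPM at 0 h, then 24.9 and 24.7 CPM at 24 h, 24.5 and 19.1 CPM at 36 h, and 18.01, 17.5, 15.98 and 15.04 CPM at 48 h. In both genes the 24 h sections stood above every 0 h section, and the 48 h sections overlapped the 0 h sections. At 24 h Anxa7 rose 1.45-fold (adjusted p = 0.00961, and 0.0516 without 24 h section B) and Anxa11 1.53-fold (adjusted p = 0.00357). Anxa11 was also called at 36 h (1.35-fold, adjusted p = 0.0307), a call lost without 0 h section 2 (adjusted p = 0.107), 0 h section 4 (adjusted p = 0.0869) or 36 h section A (adjusted p = 0.222), whereas Anxa7 was not (1.20-fold, adjusted p = 0.166). At 48 h their log2 changes were 0.05 ± 0.12 for Anxa7 (adjusted p = 0.745) and 0.04 ± 0.11 for Anxa11 (adjusted p = 0.805).

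Anxa6, the largest annexin, which acts in endosomal cholesterol transport, lay at 79.8, 81.7 and 79.2 CPM at 0 h and had 67.4 and 55.8 CPM at 24 h, 83.0 and 87.4 CPM at 36 h and 89.3, 78.0, 86.5 and 72.7 CPM at 48 h. Both 24 h sections lay below the rest of the series. At 24 h it fell by 0.38 in log2 units (adjusted p = 0.0266), with -0.25 and adjusted p = 0.22 without 24 h section B. Its log2 values were 0.09 ± 0.12 at 36 h (adjusted p = 0.617) and 0.02 ± 0.10 at 48 h (adjusted p = 0.861). The median log2 change of all genes, scaled by total counts, was 0.37 at 24 h, 0.49 at 36 h and 0.54 at 48 h, where with TMM it was 0.047, 0.048 and 0.011. On that scale all 8 members were called higher at 36 h and at 48 h, Anxa6 by 0.55 at 48 h, which is 0.02 above that median. On that scale Anxa6 at 24 h was -0.05 (adjusted p = 0.75), which is -0.43 relative to the median.

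Between injured times, 34.1% of genes were called at 48 h against 24 h, and 5 members were among them. Anxa1 rose by a further log2 1.29 (adjusted p = 0.0152) and Anxa2 by 1.24 (adjusted p = 0.0403), Anxa6 by 0.41 (adjusted p = 0.0205), while Anxa7 fell by 0.49 (adjusted p = 0.0152) and Anxa11 fell by 0.57 (adjusted p = 0.00515). The value of Anxa3 was 1.13 ± 0.41 (adjusted p = 0.0556), and DESeq2 called it (1.15, adjusted p = 0.00926), which made 6 members. The Anxa2 call was lost without any 1 of 7 sections (adjusted p up to 0.244, without 24 h section A), that of Anxa1 without 24 h section B (adjusted p = 0.125), that of Anxa6 without 24 h section B (adjusted p = 0.19) and that of Anxa7 without either 24 h section (adjusted p = 0.0792 and 0.0764). At 36 h against 24 h only Anxa6 was called (0.47, adjusted p = 0.0375, background 15.6%), and the call was lost without either 24 h section, 36 h section B or 48 h section B (adjusted p = 0.0523 to 0.196). At 48 h against 36 h edgeR called 0 members (background 3.05%), with 3 at an unadjusted p under 0.05, and DESeq2 called 0 as well, with 4 at an unadjusted p under 0.05. Without 36 h section B, 3 members were called there.

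**Figure D2:**
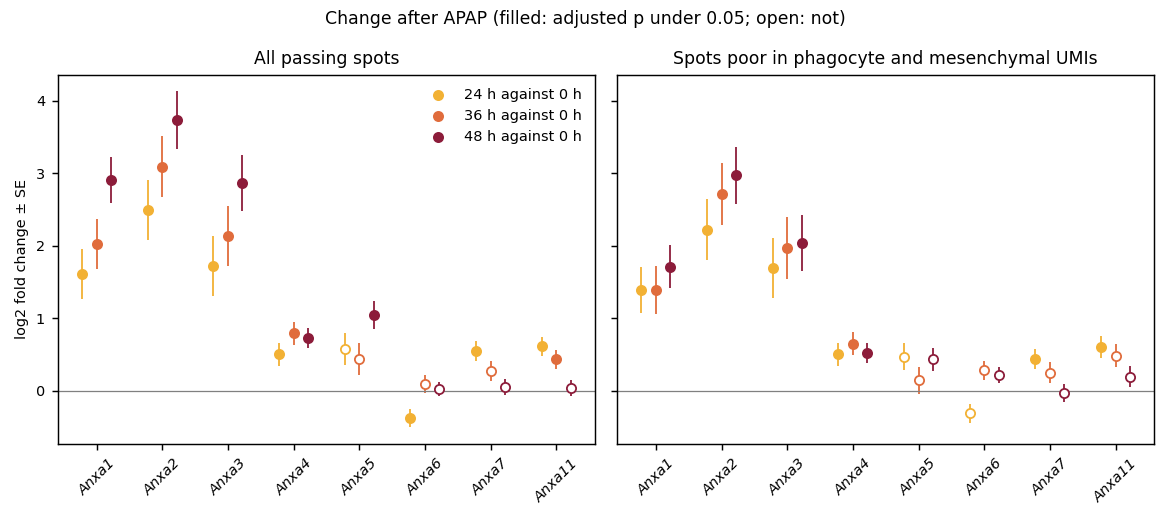
Log2 fold change against 0 h with its SE for each annexin at 24 h, 36 h and 48 h, over all passing spots (left) and over spots poor in phagocyte and mesenchymal UMIs (right), with filled points for an adjusted p under 0.05. Anxa1, Anxa2 and Anxa3 stand apart from the other members at each time, with Anxa2 at 3.73 at 48 h on the left and 2.97 on the right.

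The share of Anxa2 in the UMIs of the 8 genes summarised this change. It was 4.49% to 5.60% in the 0 h sections, 14.8% and 20.3% at 24 h, 17.1% and 28.4% at 36 h, and 22.6% to 33.5% at 48 h. No injured section overlapped the uninjured ones. Counts of 3′ ends do not depend on transcript length in the way whole-transcript reads do, but capture can differ between genes, so the change of this share over time is better founded than its size.

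Whether Anxa2 changed more than each relative was tested within sections, as the log2 ratio of each gene to Anxa2 with limma, which does not depend on the scaling between sections. Anxa4, Anxa5, Anxa6, Anxa7 and Anxa11 lagged behind Anxa2 at all 3 times, with values of -1.85 (Anxa11) to -2.85 (Anxa6) at 24 h, -2.16 (Anxa4) to -2.86 (Anxa6) at 36 h and -2.63 (Anxa5) to -3.65 (Anxa6) at 48 h, with the largest adjusted p at 0.00129. Because Anxa2 itself moved, 92.6% of all genes were called in this comparison at 24 h, 95% at 36 h and 97.3% at 48 h, so that 5 of 7 relatives was no more than the background. The other two, Anxa1 and Anxa3, were not called at any time. Anxa1 differed from Anxa2 by -0.92 ± 0.56 at 24 h (adjusted p = 0.106), -1.03 ± 0.56 at 36 h (adjusted p = 0.0703) and -0.81 ± 0.47 at 48 h (adjusted p = 0.0861). Anxa3 differed from Anxa2 by -0.76 ± 0.56 at 24 h (adjusted p = 0.186), -0.94 ± 0.56 at 36 h (adjusted p = 0.0989) and -0.90 ± 0.47 at 48 h (adjusted p = 0.0576). All 6 estimates lay below 0, and the error of Anxa2 is shared by every ratio.

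Pooling the 8 injured sections against the 3 at 0 h in an exact permutation test, two-sided, a test chosen after the values were seen, gave a different call for both. The ratio of Anxa3 to Anxa2 was different by -0.87 on the log2 scale in injured sections (mean -2.08 against -1.21) with no overlap, at the smallest p the 165 arrangements allow (exact p = 0.0121, adjusted over the 7 relatives p = 0.0141). That of Anxa1 differed by -0.88 (mean -2.75 against -1.87), with overlapping sections (exact p = 0.0485, adjusted p = 0.0485). For the remaining relatives the differences were -2.44 (Anxa5) to -3.25 (Anxa6), without overlap. Sections without 48 h section D also gave a called Anxa1 lag at 48 h in the limma fit (-1.09, adjusted p = 0.0166), as did leaving out either 36 h section (-0.81, adjusted p = 0.0373 and 0.0376), and Anxa3 was called at 48 h without either 36 h section (-0.90, adjusted p = 0.0195 and 0.0198). At 24 h Anxa1 was called without 24 h section A (-1.64, adjusted p = 0.0291) or 36 h section A (-0.92, adjusted p = 0.0499), and at 36 h without 36 h section A (-1.17, adjusted p = 0.0472) or 48 h section D (-1.03, adjusted p = 0.0431).

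The partners with which annexins work were taken as a list of 11 genes, all of them measured. Of these, 7 were called at 24 h (5 higher), 7 at 36 h (6 higher) and 7 at 48 h (5 higher), where 41.7%, 29.2% and 44.2% of all genes were called, and their median log2 change at 48 h was 0.39 beside 0.01 over all genes. S100a6, which binds Anxa2, Anxa6 and Anxa11, rose from a mean of 6.15 CPM at 0 h to 363 CPM at 48 h (59.1-fold, adjusted p = 0.000125). S100a11, the partner of Anxa1, rose 9.42-fold at 48 h (adjusted p = 0.000432), and S100a4, an Anxa2-binding S100 protein of macrophages and fibroblasts, rose 34.1-fold (adjusted p = 0.000204). Plat, tissue plasminogen activator, rose 37.9-fold at 48 h (adjusted p = 0.000251). S100a10, the best known partner of Anxa2, was not called, with log2 values of 0.34 at 24 h (adjusted p = 0.295), -0.40 at 36 h (adjusted p = 0.256) and 0.26 at 48 h (adjusted p = 0.331). Ahnak, a scaffold that binds the Anxa2 and S100a10 complex, rose 1.83-fold at 48 h (adjusted p = 0.000885). Plg, plasminogen, which hepatocytes secrete, fell by 0.52 at 48 h (adjusted p = 0.000885), and Pdcd6, a calcium-binding partner of Anxa7 and Anxa11, fell by 0.24 (adjusted p = 0.0342). The Anxa1 receptors were not called, with log2 values at 48 h of -0.32 for Fpr1 and -0.48 for Fpr2.

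Among other annexins in the matrices, Anxa9 rose at 24 h, 36 h and 48 h (2.22-fold at 48 h, adjusted p = 0.00191) from 1.31 CPM at 0 h. Anxa8 was called at 36 h only (7.48-fold, adjusted p = 0.0385), on 6 and 30 UMIs in the sections there against 2 to 4 UMIs at 0 h. Anxa10 had at most 1 UMI in any section and was not tested.

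Outside the family, the 5 genes whose log2 levels ran most nearly parallel to those of Anxa2 over the 11 sections, among 7085 genes with a mean of at least 10 CPM and with annexin members left out of the list, were S100a6 (Pearson r = 0.997), Chil3 (0.996), S100a4 (0.990), Iqgap1 (0.989) and Lgals3 (0.984). Within the 8 injured sections their r was 0.983, 0.981, 0.966, 0.942 and 0.893. Chil3 and Lgals3 encode lectins known from macrophages, and Iqgap1 an actin scaffold. Among relatives, r over the 11 sections was 0.990 for Anxa3, above Iqgap1 and Lgals3, 0.948 for Anxa4, 0.928 for Anxa1 and 0.898 for Anxa5, and within the injured sections 0.989, 0.779, 0.691 and 0.896. It was 0.0843 for Anxa6, 0.197 for Anxa7 and 0.162 for Anxa11, and within injured sections Anxa7 and Anxa11 ran opposite to Anxa2 (-0.526 and -0.746). Injured and uninjured sections form separate clusters and share the section depth, so these values are descriptions of likeness with no test.

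Markers of some other cells also rose after injury, but not all of them at every time. The 4 phagocyte genes (Lyz2, Csf1r, Cd68, Cd5l) summed to 409 to 434.5 CPM at 0 h, 553 to 595 CPM at 24 h, 448 to 623 CPM at 36 h and 722 to 1327 CPM at 48 h. The 7 mesenchymal genes (Col1a1, Pdgfrb and others) summed to 249.7 to 286 CPM at 0 h. At 24 h their sum lay below this, at 198 to 245 CPM. It was 229 to 566.5 CPM at 36 h and 674 to 1470 CPM at 48 h. Among single phagocyte genes, calls against 0 h numbered 1 at 24 h, 1 at 36 h and 3 at 48 h, each a rise. Mesenchymal calls were 3 rises beside 1 fall at 24 h, then 6 beside 1 at 36 h, and 6 rises alone at 48 h. Of all genes, 41.7%, 29.2% and 44.2% were called at these times. The 1 of 4 phagocyte genes called at 24 h and at 36 h was thus no more than that share. The 5 neutrophil genes summed to 1.98 to 7.88 CPM at 0 h and 20.9 to 136 CPM in injured sections, and the 3 mesothelial genes reached 14.2 CPM in a 36 h section against 0.755 to 2.23 CPM at 0 h. The sums of 7 endothelial genes overlapped between 0 h (246.7 to 283 CPM) and the injured sections (202 to 325 CPM), as did those of 3 duct genes and of 6 lymphocyte genes.

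Anxa2 and its relatives were therefore measured again in spots with few such UMIs. After each spot was thinned to 5000 UMIs, spots with at most 2 UMIs of the phagocyte and mesenchymal genes together were kept, 95 (48 h section C) to 1332 (0 h section 3) spots per section. They were 50.2% to 50.9% of spots at 0 h, 32.9% and 43.1% at 24 h, 45.4% and 21.6% at 36 h and 3.73% to 20.1% at 48 h. In these spots the phagocyte sum was 273 to 296 CPM at 0 h and 239 to 399 CPM in injured sections, and the neutrophil sum 1.38 to 5.16 CPM and 11.3 to 53.3 CPM. The mesenchymal sum was 169 to 194 CPM at 0 h, 135 to 157 CPM at 24 h, 143 to 286 CPM at 36 h and 273 to 472 CPM at 48 h. The spots were thus poorer in these cells than all spots of their time but not free of them. At 48 h every section still lay above every 0 h section in mesenchymal genes. Taken singly, these 7 genes had a median log2 change against 0 h of 0.66 at 24 h, 1.19 at 36 h and 2.74 at 48 h. Rises passed the threshold for 3, 5 and 5 of them, and falls for 1, 1 and 0. For the 3 neutrophil genes tested the medians were 3.43, 2.35 and 2.88. For the 4 phagocyte genes they were 0.16, -0.18 and 0.26. The part of these cells in the Anxa2 rise was not tested. Anxa2 lay at 12.2, 12.4 and 13.5 CPM at 0 h. It lay at 49.4 and 69.3 CPM at 24 h, 45.4 and 122 CPM at 36 h, and 129, 86.8, 120.4 and 59.2 CPM at 48 h. Again no injured section overlapped the 0 h sections. It rose 4.67-fold at 24 h (adjusted p = 0.00354), 6.56-fold at 36 h (adjusted p = 0.00435) and 7.81-fold at 48 h (log2 2.97 ± 0.40 SE, adjusted p = 0.00163).

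In the same spots Anxa1 rose 2.62-fold, 2.63-fold and 3.28-fold at 24 h, 36 h and 48 h (adjusted p = 0.00498, 0.0148 and 0.00246), Anxa3 3.22-fold, 3.91-fold and 4.09-fold (adjusted p = 0.0115, 0.0143 and 0.00671) and Anxa4 1.41-fold, 1.57-fold and 1.43-fold (adjusted p = 0.023, 0.0136 and 0.0179). Anxa5, called at 48 h over all spots, was not called at any time here (0.43 ± 0.16 at 48 h, adjusted p = 0.0802), and it was called at 48 h without either 36 h section (adjusted p = 0.0233 and 0.0171). Anxa6 was not called (-0.31 at 24 h, adjusted p = 0.0864). Anxa7 and Anxa11 were called at 24 h only, by 0.44 and 0.60 (adjusted p = 0.0255 and 0.00848). In all, 6 of 8 members were called at 24 h (background 37.7%), 4 at 36 h (19%) and 4 at 48 h (19%). Without 24 h section B, 2 were called at 24 h, and at 36 h 1 or 2 were called without 0 h section 2, 0 h section 3 or 36 h section B. At 48 h the Anxa4 call was lost without 0 h section 2, 0 h section 3, 48 h section A or 48 h section C (adjusted p = 0.0596 to 0.0856). The difference between all spots and these spots was not tested.

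The maps of Anxa2 and Anxa6 across 1 section of each time show where on the array these levels lay, without marking tissue structures. At 36 h and 48 h the section drawn had the highest Anxa2 level of its time, and at 24 h the lower level.

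**Figure D3:**
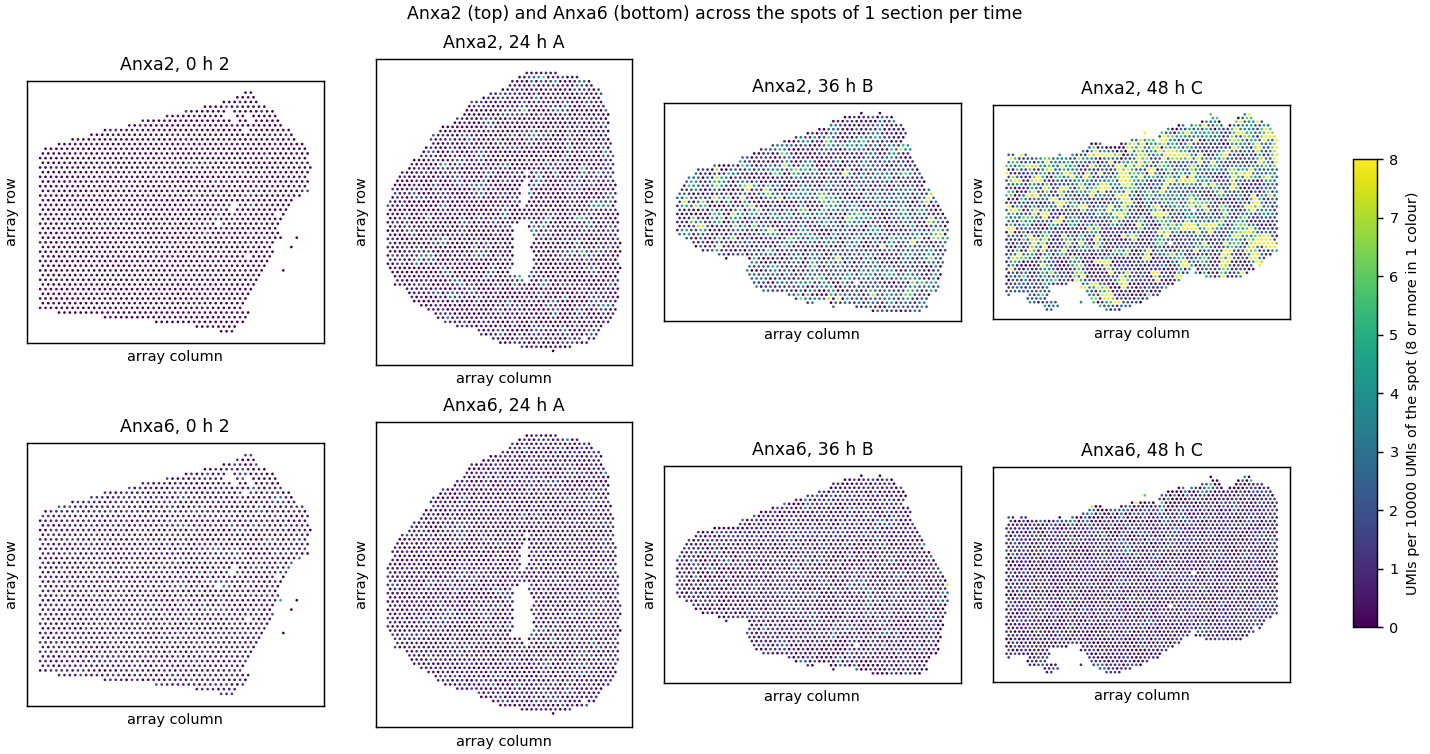
UMIs of Anxa2 (top) and Anxa6 (bottom) per 10000 UMIs of each passing spot, drawn at its place on the array, for 0 h section 2, 24 h section A, 36 h section B and 48 h section C. Over the whole section, Anxa2 is at 15.2 CPM at 0 h and at 72.4, 200.4 and 297 CPM in the injured sections drawn. Anxa6 is at 79.8 CPM at 0 h and 86.5 CPM at 48 h. Clustering of high spots on these maps was not measured.

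Co-variation across spots was described per section by Spearman's rho over spots thinned to 5000 UMIs, without a test, since spots of a section share its libraries and the scores share each spot's UMIs. Against the phagocyte and mesenchyme scores Anxa2 showed its highest rho at 48 h, with medians over 4 sections of 0.437 against the mesenchyme score, 0.418 against the phagocyte score and -0.199 against the hepatocyte score, which was -0.195 at 24 h and -0.215 at 36 h. At 0 h the same medians were 0.0581, 0.00242 and -0.000735. At 48 h Anxa5 followed Anxa2 closely in this respect (0.376, 0.370 and -0.182), then Anxa1 (0.305, 0.284 and -0.187) and Anxa3 (0.247, 0.274 and -0.166). Anxa4 was weaker (0.133 and 0.148 against the mesenchyme and phagocyte scores), Anxa7 weaker again (0.107 and 0.0952), and Anxa6 (0.0553 and 0.0451) and Anxa11 (0.0278 and 0.0499) were near 0. Against Anxa2 itself, the median rho at 48 h was 0.330 for Anxa5, 0.265 for Anxa3, 0.219 for Anxa1, 0.147 for Anxa4, 0.112 for Anxa7, 0.0456 for Anxa11 and 0.0431 for Anxa6. Sparse counts lower rho, most for the lowest genes.

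For a test over sections, spots of each section were ranked by a score and cut into 5 classes of equal size, and UMIs were summed in the top and in the bottom class. In the injured sections all of Anxa1, Anxa2, Anxa3, Anxa4 and Anxa5 were lower in hepatocyte-high than in hepatocyte-low spots and higher in spots rich in phagocyte or mesenchymal genes, and Anxa11 was called on none of the 3 scores. With total-count scaling all 8 members were called by each score, Anxa11 at -0.43, 0.38 and 0.38 by the hepatocyte, phagocyte and mesenchyme scores. The median log2 value of all genes on that scale was -0.33, 0.36 and 0.35. By the hepatocyte score 6 of 8 members were called (background 57%), by the phagocyte score 6 (64.8%) and by the mesenchyme score 6 (61.2%), shares near those of all genes.

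Anxa2 by the hepatocyte score lay at 53.4 and 76.8 CPM in the top class at 24 h, 59.0 and 146.6 CPM at 36 h and 114 to 239 CPM at 48 h, against 113 and 176 CPM, 127 and 286 CPM, and 204 to 454 CPM in the bottom class. In each of the 8 injured sections the top class held 0.437 to 0.561 of the bottom level (log2 -0.98 ± 0.05 SE, adjusted p = 1.26e-11). By the phagocyte score the top class held 1.86 to 3.61 times the bottom level (log2 1.45 ± 0.10, adjusted p = 6.55e-09) and by the mesenchyme score 1.57 to 4.17 times (1.32 ± 0.14, adjusted p = 1.05e-05). The class of spots poorest in phagocyte genes held 71.0 to 174 CPM of Anxa2 at 48 h, and the richest class at 0 h held 14.8 to 21.8 CPM. These classes come from different times, and the part of phagocytes in that difference was not tested.

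Anxa1 had the steepest gradients, with log2 -1.39 ± 0.10 by the hepatocyte, 1.82 ± 0.16 by the phagocyte and 1.88 ± 0.19 by the mesenchyme score, and ratios up to 5.65 by the phagocyte score in 48 h section B. Anxa3 was close to Anxa2 (-1.02, 1.52 and 1.31), Anxa5 followed (-0.57, 0.91 and 0.87) and Anxa4 was shallower (-0.28, 0.35 and 0.37), all with adjusted p of 0.00119 or less. Anxa7 was higher in phagocyte-rich (0.26, adjusted p = 0.000672) and mesenchyme-rich spots (0.22, adjusted p = 0.00193) and not called by the hepatocyte score (-0.11, adjusted p = 0.134). Anxa6 was the one member called higher in hepatocyte-rich spots (0.14, adjusted p = 0.0238, higher in 7 of 8 sections), but without 0 h section 2, 0 h section 3, 36 h section B, 48 h section A or 48 h section C this was not called (0.10 to 0.13, adjusted p = 0.0533 to 0.0727), and with total-count scaling it turned to -0.19 (adjusted p = 0.00162). That value was 0.14 above the median of all genes on the total-count scale.

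The gradient of each relative was set against that of Anxa2 in the same sections by an exact sign-flip permutation test over the 8 injured sections, two-sided, with 21 comparisons and a smallest possible p of 0.00781, a test chosen after the values were seen. Anxa3 could not be told from Anxa2, with differences of -0.01 ± 0.29 (SD, n = 8, exact p = 0.891) by the hepatocyte score, 0.04 ± 0.21 (exact p = 0.672) by the phagocyte score and -0.06 ± 0.25 (exact p = 0.508) by the mesenchyme score. Anxa1 was steeper than Anxa2 by the mesenchyme score, by 0.46 ± 0.31 in 7 of 8 sections (exact p = 0.0156, adjusted p = 0.0205), and not detectably so by the hepatocyte (-0.32 ± 0.51, exact p = 0.117) or phagocyte score (0.27 ± 0.39, exact p = 0.0938). Anxa4, Anxa5, Anxa6, Anxa7 and Anxa11 were shallower than Anxa2 by all 3 scores in 8 of 8 sections, each at the smallest p (adjusted p = 0.0109), with Anxa5 the nearest (0.42, -0.54 and -0.45) and Anxa6 the farthest (1.12, -1.57 and -1.38). Over all genes the median log2 gradient was -0.006, 0.017 and 0.042, so a gene without a gradient would also be shallower than Anxa2. The share of all genes that were shallower was not counted.

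In the 3 uninjured sections no member was called by any score, against a background of 0.0609% (hepatocyte), 0.358% (phagocyte) and 0.182% (mesenchyme) of genes. In edgeR, 0 members by the hepatocyte and 0 by the phagocyte score had an unadjusted p under 0.05, and 1 did by the mesenchyme score. That gene was Anxa2, at 22.7, 21.6 and 26.2 CPM in the mesenchyme-rich class and 14.03, 12.6 and 13.5 CPM in the poorest (log2 0.81 ± 0.26, adjusted p = 0.528). The gradients differed between injured and uninjured sections for 4 members by the hepatocyte score (background 23.2%) and 5 by the phagocyte score (23.9%). By the hepatocyte score these were Anxa2 (-1.03, adjusted p = 3.52e-05), Anxa1 (-1.03, adjusted p = 0.0223), Anxa3 (-0.74, adjusted p = 0.00589) and Anxa5 (-0.45, adjusted p = 0.00818). By the phagocyte score they were Anxa2 (1.30, adjusted p = 0.00249), Anxa1 (1.38, adjusted p = 0.0366), Anxa5 (0.87, adjusted p = 0.00885), Anxa4 (0.49, adjusted p = 0.0346) and Anxa7 (0.38, adjusted p = 0.0189). By the mesenchyme score edgeR called 0 members (background 0.129%), with 4 at an unadjusted p under 0.05, and Anxa2 differed by 0.51 ± 0.30 (adjusted p = 0.264). With 3 uninjured sections these differences were fragile: 1 or 2 members were called by the hepatocyte score without 0 h section 4 or 3, and 2 or 3 by the phagocyte score without any 1 of the 0 h sections, 48 h section A or 48 h section C, whereas 2 were called by the mesenchyme score without 24 h section A. The Anxa2 differences by the hepatocyte and phagocyte scores were called without any single section.

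**Figure D4:**
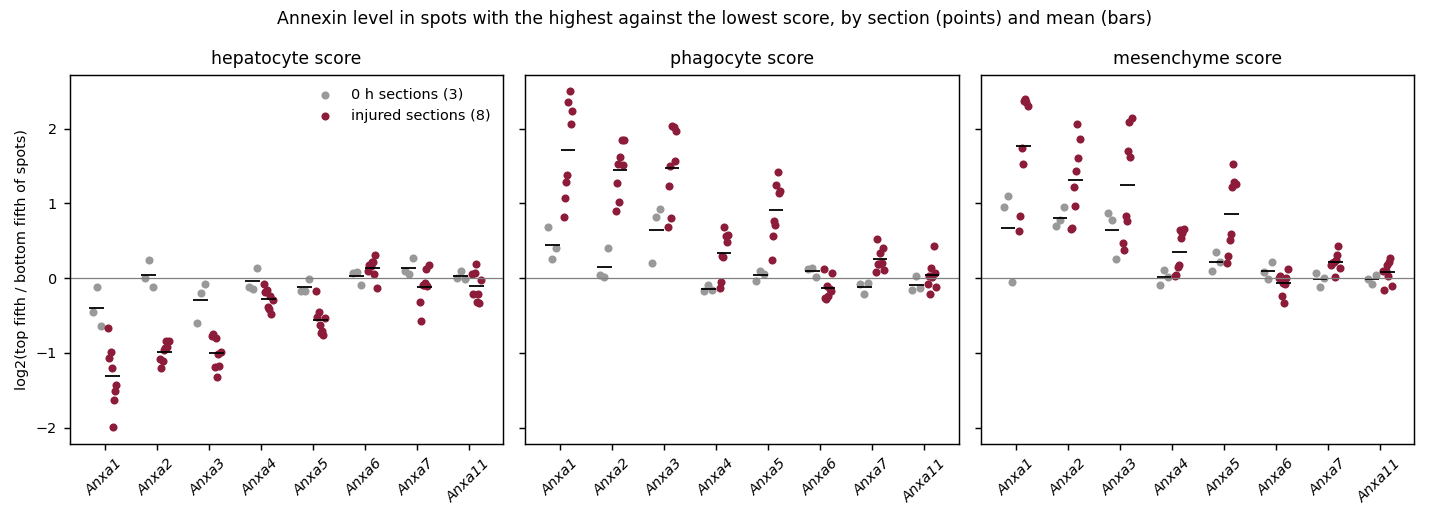
Log2 ratio of each annexin between the 1 of 5 classes of spots with the highest and that with the lowest hepatocyte, phagocyte or mesenchyme score, with 1 point per section (grey 0 h, red injured) and a bar for the mean. Anxa1, Anxa2, Anxa3 and Anxa5 lie below 0 by the hepatocyte score and above 0 by the others in all 8 injured sections, while Anxa11 scatters around 0. Anxa6, slightly above 0 by the hepatocyte score here (0.14), turns to -0.19 with total-count scaling, where the median of all genes is -0.33.

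Levels were also compared by distance from spots with a low hepatocyte score. Spots under the 1st percentile of the 0 h hepatocyte score were called hepatocyte-low, and 6 injured sections (24 h A and B, 48 h A to D) had at least 20 of them, 23 to 247 per section. Such spots made up 0.777% to 1.32% of spots at 0 h, 1.42% and 1.79% at 24 h, 0.781% and 0.50% at 36 h and 2.48% to 9.69% at 48 h. Neither 36 h section had enough. In spots touching them, Anxa2 lay at 113 and 211 CPM at 24 h and reached 440, 337, 446 and 232 CPM at 48 h, against 82.4 and 129.6 CPM and 241, 215, 279.5 and 126 CPM in spots at least 3 steps away. Touching spots were higher in every section (1.37 to 1.84 times, log2 0.71 ± 0.08 SE, adjusted p = 1.14e-07). The hepatocyte-low spots themselves held 188 to 653 CPM, 2.28 times the far level (log2 1.19 ± 0.08, adjusted p = 6.28e-13). In 5 of 6 sections the order was low, touching, far, the exception being 24 h section B, where low spots (201 CPM) lay below touching ones (211 CPM).

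Anxa3 had almost the same profile (0.66 touching, 1.21 low), and Anxa1 matched them in touching spots (0.70) and had a larger value in the low spots (1.78 ± 0.10), with 1.55 times the far level in 24 h section A, under the 2.29 times of Anxa2, and up to 4.36 times at 48 h. The difference from Anxa2 was not tested there. Anxa5 was graded in 6 of 6 sections (0.40 and 0.81) and Anxa4 was higher in touching spots in 6 of 6 sections (0.28), but in low spots (0.31) only in the 4 sections of 48 h (1.06 to 1.48 times the far level), with 0.897 and 0.629 times in the 24 h sections. Anxa7 was called at 0.18 in both (adjusted p = 0.0236 and 0.033), calls that were each lost without 4 of the 6 sections, and Anxa11 in neither (0.05 and 0.14, adjusted p = 0.58 and 0.202), though it was in both with total-count scaling (0.26 and 0.63). Anxa6 was lower in touching spots in 6 of 6 sections (-0.12, adjusted p = 0.104) and was called lower in the low spots (-0.18, adjusted p = 0.0265), but these turned to 0.09 and 0.31 (adjusted p = 0.000193) with total-count scaling, and the call was lost without 48 h section A, B or C (adjusted p = 0.0737 to 0.17). On the total-count scale the median of all genes was 0.21 in touching and 0.52 in low spots. Relative to it Anxa6 was at -0.13 and -0.20, and Anxa11 at 0.05 and 0.12. In all, 6 members were called in touching spots (background 35.8%) and 7 in low spots (64.6%), with 4 in low spots without 48 h section A, when Anxa4 was at 0.22 (adjusted p = 0.0546).

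**Figure D5:**
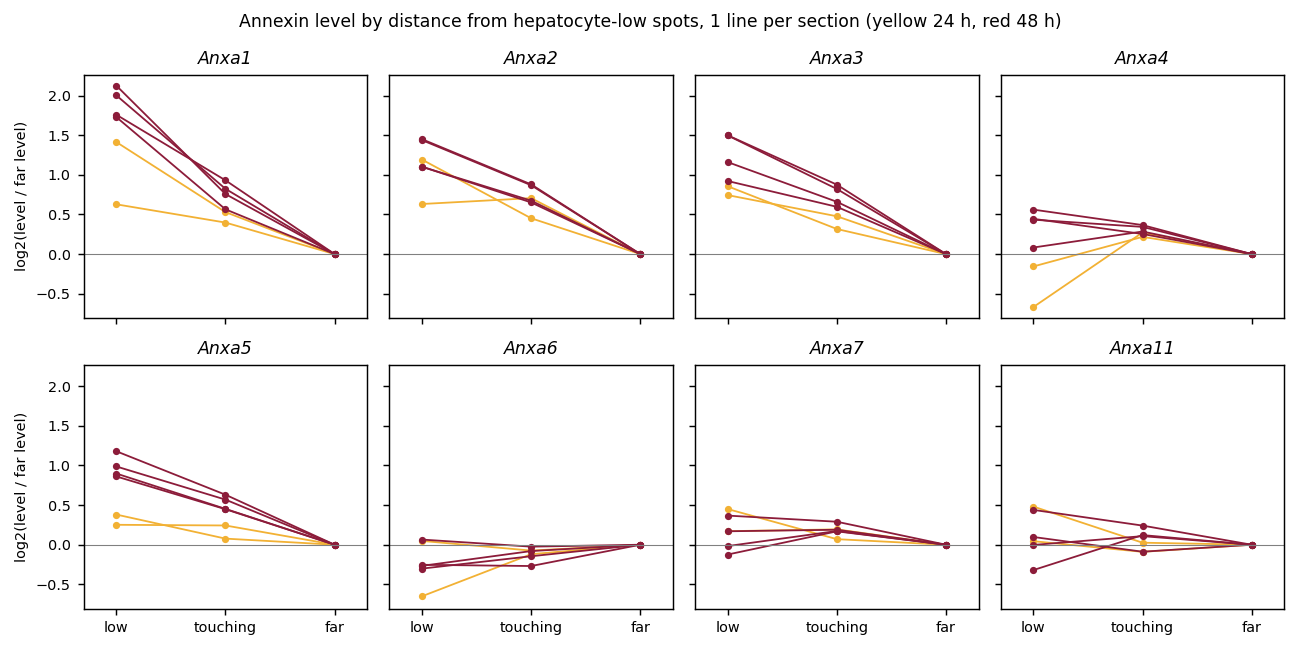
Level of each annexin in hepatocyte-low spots, in spots touching them and in spots at least 3 steps away, as log2 of the level over the far level, with 1 line per section (yellow 24 h, red 48 h). In low spots Anxa1 lies at 1.55 to 4.36 times the far level and Anxa2 at 1.55 to 2.73 times, with Anxa1 below Anxa2 in 24 h section A, and Anxa6 lies between 0.637 and 1.05 times, a direction that turns on average with total-count scaling. On that scale Anxa6 in low spots is at log2 0.31, beside a median of 0.52 over all genes.

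Phagocyte, mesenchymal and neutrophil genes changed along the same axes. All 4 phagocyte genes were higher in touching (median log2 0.51) and low spots (1.48), as were 6 of 7 mesenchymal genes (0.50 and 1.54). All 4 neutrophil genes tested were higher in touching spots (median log2 0.77) and in low spots (1.66), and 4 and 5 of the 7 endothelial genes were higher there. Of the annexin partners, 7 of 11 were higher and 1 lower in touching spots, and 8 higher and 2 lower in low spots. Of all genes, 35.8% were called in touching and 64.6% in low spots, so that 5 of 7 endothelial genes in low spots was near that share. The part of these cells in the annexin gradients was not tested.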

How the data were processed

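Per the labels, the authors made 10x Visium 3′ v1 libraries from 11 mouse liver sections and processed them with Space Ranger 1.0.0 and Seurat 4.1.1 (mm10). The deposited values are raw UMI counts per gene and spot, not normalized, and no other unit was used. Spots under 800 genes or over 20% mitochondrial UMIs were dropped, and the authors' manual removal of isolated spots was not repeated.

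UMIs were summed per section or per class of spots. edgeR 4.0.16 in R 4.3.3 (TMM, filterByExpr, quasi-likelihood test) was fitted to all 11 sections by time, or to paired spot classes with the section as a term, and limma 3.58.1 to log2 ratios to Anxa2 (prior count 2). DESeq2 1.42.0 was an alternative. Hepatocyte, phagocyte and mesenchyme scores were taken on spots thinned to 5000 UMIs. The fits were tested on simulated data. Sections differed from each other by more than counting noise (lowest chi-square per gene 32.8), so none was counted as a copy.

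Named genes were all members, the annexin partners and the 5 genes most like Anxa2 other than members. Members, lists and tests were chosen with earlier results of these data known. Alternatives included scaling, filters, spot limits, thinning depth and leaving out each section. UMIs count molecules, and depth limits the low genes most.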

Additional observations from a re-analysis of the deposited data

Results flagged for a closer look

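Several annexin changes differed between injured times. At 48 h against 24 h the log2 difference was 1.29 for Anxa1, 1.24 for Anxa2, 0.41 for Anxa6, -0.49 for Anxa7 and -0.57 for Anxa11. Anxa6 also differed at 36 h against 24 h (0.47). These come from edgeR's test of the difference between times, in which the 0 h sections enter only through the estimate of the spread.

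The step between spots with high and low scores differed between injured and 0 h sections by a test of the difference. By the hepatocyte score the differences were -1.03 for Anxa1, -1.03 for Anxa2, -0.74 for Anxa3 and -0.45 for Anxa5. By the phagocyte score they were 1.38 for Anxa1, 1.30 for Anxa2, 0.49 for Anxa4, 0.87 for Anxa5 and 0.38 for Anxa7.

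In 2 of 32 groups of 4 sections, 1 section stood far from the others, where chance flags about 1 in 20. For Anxa7 at 48 h this was section A at 90.9 CPM, with a gap of 0.865 of the range against a limit of 0.829. For the Anxa3 ratio between phagocyte-rich and phagocyte-poor spots at 48 h the gap was 0.84 of the range.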

How the results depend on the processing

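Anxa2 was called higher at 24 h, 36 h and 48 h than at 0 h under every alternative run. Its rise from 24 h to 48 h was not called without the filter on low counts (1.28, adjusted p = 0.0698), in the injured sections alone (1.24, adjusted p = 0.0738) or without any 1 of 7 sections (range 0.96 to 1.58). With total-count scaling 8 members were called at 36 h and 8 at 48 h, and in the spots poor in other cells 7 at 36 h and 7 at 48 h, where Anxa7 at 48 h turned to 0.23, beside a median of 0.31 over all genes. On that scale Anxa6 turned to -0.19 by the hepatocyte score (difference from 0 h -0.16), 0.22 by the phagocyte score (0.12), 0.24 by the mesenchyme score (0.11), 0.09 in touching and 0.31 in low spots, and 1 member differed by the mesenchyme score. The median of all genes was -0.33 by the hepatocyte score (difference from 0 h -0.26), 0.36 by the phagocyte score (0.38) and 0.35 by the mesenchyme score (0.32). In touching and low spots that median was 0.21 and 0.52. With a limit of 0 UMIs, sections with fewer than 50 such spots were left out of the fit. Only section A then remained at 36 h (150 spots) and at 48 h (60 spots). There 3 members were called at 24 h. Anxa5 turned to -0.39 at 36 h and Anxa7 to 0.07 at 48 h, each resting on that single section. The Anxa6 call at 36 h against 24 h was lost (0 called) with only the times compared and in the injured sections alone. The cause of these shifts was not tested.

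Leaving out each section gave 3 to 8 members called at 24 h against 0 h, 0 to 1 at 36 h against 24 h, 0 to 3 at 48 h against 36 h and 1 to 7 at 48 h against 24 h. In spots poor in other cells it gave 2 to 7 at 24 h and 1 to 5 at 36 h. The difference from 0 h had 1 to 4 members by the hepatocyte, 2 to 6 by the phagocyte and 0 to 2 by the mesenchyme score, and low spots had 4 to 7. Signs turned for Anxa5 at 36 h (-0.08 to 0.82; in poor spots -0.30 to 0.45), for Anxa6 (-0.02 to 0.08), Anxa7 (-0.07 to 0.10) and Anxa11 (-0.02 to 0.10) at 48 h, and for Anxa11 by the phagocyte score (-0.02 to 0.10).

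Whether the section letters pair the sections could not be decided. Correlations of deviations from the mean of each time ran from -0.241 to 0.287 for same-letter sections. For different letters they ran from -0.465 to 0.465. Where a time has 2 sections, their deviations mirror each other. Between 24 h and 36 h the same-letter and different-letter values therefore differ in sign only (0.287 and -0.287). With the letter as a replicate block, 0 members were called at 36 h against 24 h and 0 at 48 h against 24 h, where Anxa2 was at 1.36 (adjusted p = 0.105). At 0 h Anxa1 and Anxa3 had the lowest UMI counts of the members.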
